A study of Homo sapiens with 6 samples.

Results

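The 37 genes carried by the mitochondrial genome were taken as all rows whose gene symbol starts with MT-, out of 57820 genes in the expression tables of total RNA from SEM cells. They comprised 13 messenger RNAs (mRNAs), 2 ribosomal RNAs (rRNAs) and 22 transfer RNAs (tRNAs). SEM is a B-cell acute lymphoblastic leukemia line, and here its own CTCF carried a miniAID-mClover3 degron tag in cells that express the plant receptor protein OsTIR1(F74G). In all 6 libraries the cells received 5-Ph-IAA for 24 h, which removes the tagged CTCF protein. Doxycycline at 1 µg/mL was added after the first 6 h and kept for 18 h, and it induced an HA-tagged CTCF that was either full length (CTCF-WT, 3 libraries) or lacked the RNA-binding region (CTCF-dRBR, 3 libraries, transgene TRE3G-HA-CTCF-dRBR). The comparison of the groups asks whether RNA levels change when CTCF lacks this region. The labels name the transgene, on a doxycycline-inducible promoter, for CTCF-dRBR only, and the groups follow the sample titles. No library without 5-Ph-IAA and doxycycline belongs to this comparison. The labels do not say whether the 3 libraries of a group came from separate cultures, so the p-values measure the spread between these libraries only.

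The human mitochondrial genome is a small circle that is read by its own single-subunit RNA polymerase, POLRMT, as long transcripts from both strands, which are then cut into separate RNAs mostly at the tRNAs that lie between the genes. The mRNAs encode core subunits of complexes I, III, IV and V of the respiratory chain, and the rRNAs and tRNAs serve the mitochondrial ribosome that translates them. All other proteins of the organelle, including those that copy, process, stabilize and translate these RNAs, are made from nuclear genes. In the annotation used here (chrM of GRCh37, 16569 bases), 28 of the 37 genes lie on the plus strand, which is the unit transcribed from the heavy strand, and 9 lie on the minus strand, the light strand unit. Those 9 are MT-ND6 and 8 tRNAs, so MT-ND6 was the single mRNA of the light strand unit beside 12 mRNAs of the heavy strand unit.

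The 2 units differ in the bases of their RNAs. MT-ND6 had 35.6% G and 7.05% C, whereas the 12 heavy strand mRNAs had between 6.28% and 16.2% G and between 29.5% and 36.0% C. The sum of G and C in MT-ND6, 42.7%, lay within the 39.6% to 47.7% of the other mRNAs. The first 60 bases of MT-ND6 (chrM:14614-14673, minus strand), of its neighbor MT-ND5 (chrM:12337-12396, plus strand) and of MT-CO1 (chrM:5904-5963, plus strand) are shown from GRCh37 to make this visible, with every G in capitals.
MT-ND6: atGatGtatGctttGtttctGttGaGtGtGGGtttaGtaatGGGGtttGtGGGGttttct
MT-ND5: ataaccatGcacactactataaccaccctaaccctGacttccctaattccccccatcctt
MT-CO1: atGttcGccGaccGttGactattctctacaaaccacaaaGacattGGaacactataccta
These stretches held 21 G in MT-ND6, 2 in MT-ND5 and 8 in MT-CO1.

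MT-ND5 ends at base 14148 and MT-ND6, on the other strand, covers bases 14149 to 14673. Transcription of the heavy strand unit from MT-ND5 to MT-CYB (14747 to 15887) thus passes through the reverse complement of MT-ND6. Only the name of the deposited table says that counting used strand. Reads of the 2 strands over MT-ND6 could not be told apart if strand was not used.

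Some neighbors share bases. MT-ATP8 and MT-ATP6 overlap by 46 bases and MT-ND4L and MT-ND4 by 7, and reads that fall in these stretches were divided between the genes by the authors' estimate. The junctions are shown with 10 bases on each side and the shared bases in capitals (chrM:8517-8582 and chrM:10750-10776, plus strand, GRCh37).
MT-ATP8 and MT-ATP6: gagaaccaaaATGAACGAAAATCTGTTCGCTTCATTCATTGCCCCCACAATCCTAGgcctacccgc
MT-ND4L and MT-ND4: acctactccaATGCTAAaactaatcgt
In both, the capitals begin with the start codon of the downstream gene.

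Library totals ranged from 51732177 to 53166735 expected counts in CTCF-WT and from 30034505 to 50457168 in CTCF-dRBR, and the lowest was CTCF-dRBR library 1. The deviation of each library from the mean of the libraries was correlated by rank with GC content across 13654 genes. This correlation was -0.79 in CTCF-dRBR library 1, -0.45 in library 2 and 0.51 in library 3. In CTCF-WT it was 0.72, 0.68 and 0.33, so the GC trend differed in part with the group. Results below are also given without CTCF-dRBR library 1 where it changed them, which does not remove the trend of library 2. CTCF itself was measured at 210, 211 and 249 CPM (counts scaled by library size) in CTCF-WT and 273, 264 and 252 in CTCF-dRBR. The tagged gene and the transgene add to the same count and the degron acts on the protein, so this does not check the labels. Of 10 B-lineage markers, 9 passed the count filter, PAX5 and EBF1 among them at 165 to 392 and 205 to 275 CPM, and the tenth, DNTT, reached 0.291 CPM. Of 6 T and NK cell markers 1 passed the filter, NCAM1 (4.36 to 7.57 CPM), and of 5 myeloid markers 2, LYZ (5.35 to 6.58) and CSF1R (1.77 to 6.81), while 0 of 5 erythroid markers did. CD3D, GZMB, ELANE, HBA1, HBA2 and ALAS2 were at 0 in every library, and the other markers that did not pass reached at most 0.334 CPM.

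The level per length of each gene was read from the deposited TPM (counts scaled by effective length and library total). The 3 mRNAs of cytochrome c oxidase, complex IV, were the highest mitochondrial RNAs in the mean of the 6 libraries. MT-CO3 had a TPM of 875, 777 and 1220 in CTCF-WT and 1237, 1679 and 1379 in CTCF-dRBR. MT-CO1, the catalytic subunit, had 419, 412 and 709 in CTCF-WT and 817, 1024 and 794 in CTCF-dRBR, and MT-CO2, which takes electrons from cytochrome c, had 408, 400 and 716 against 814, 660 and 508. MT-CO1 and MT-CO2 overlapped in their ranges, while MT-CO3 was above both in each library. Between the groups TPM was shifted for all genes, with a median log2 fold change of 0.40 on log2(TPM + 1). By the TMM-normalized CPM given below, the groups overlapped for each of these 3 mRNAs. On the same scale, averaged over the 6 libraries, MT-ND6 was at 294, MT-ND3 at 249, MT-ATP8 at 222, MT-ATP6 at 165, MT-RNR2 at 144, MT-ND4L at 126, MT-ND4 at 112, MT-ND2 at 89.9, MT-ND1 at 85.2, MT-CYB at 78.9, MT-ND5 at 58.6 and MT-RNR1 at 36.3. Each of these neighbors in the order overlapped in its range with the next. The place of MT-ND6 came from CTCF-dRBR, where its TPM was 781, 386 and 231, against 87.7, 99.3 and 177 in CTCF-WT. In the CTCF-WT mean MT-ND6 was at 121, below MT-ND3 (256), MT-RNR2 (242), MT-ATP8 (198), MT-ND4L (140) and MT-ATP6 (136). MT-ATP8 (207 bases), MT-ND4L (297) and MT-ND3 (346) are short, so their levels per length depend most on the effective length that the authors' estimate assigned.

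**Figure D1:**
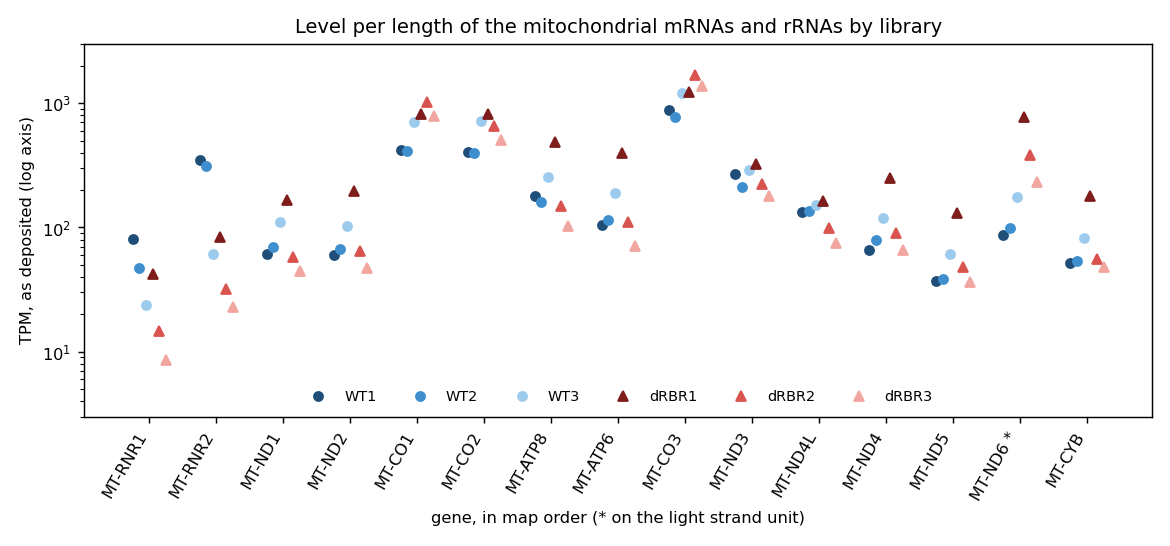
TPM as deposited (log axis) of the 15 mitochondrial mRNAs and rRNAs in map order for each library, with circles for CTCF-WT and triangles for CTCF-dRBR. MT-CO1, MT-CO2 and MT-CO3 lie above the other mRNAs in each library, the values of MT-ND6 are higher in the 3 CTCF-dRBR libraries than in the others, and the rRNAs span the widest range.

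To compare the groups, the fit was limited to the 14044 genes that reached 1 CPM in at least 1 library, including all 13 mitochondrial mRNAs and both rRNAs but no mitochondrial tRNA. With limma-voom and Benjamini-Hochberg adjustment over these 14044 genes, 0 of the 15 passed an adjusted p of 0.05, as did 0% of all genes. At an unadjusted p under 0.05 there were 3 of the 15, 1 higher and 2 lower in CTCF-dRBR, against 12.6% of all genes higher and 12.8% lower. With the quasi-likelihood test of edgeR 0 passed the adjusted threshold, as did 0% of all genes, and 4 of the 15 had an unadjusted p under 0.05, against 24.7% of all genes. With DESeq2 3 passed the adjusted threshold (MT-ND6 higher, MT-RNR1 and MT-RNR2 lower), against 11.5% of all genes. When the values of single libraries were compared, 1 of the 15, MT-ND6, lay higher in every CTCF-dRBR library than in any CTCF-WT library, a pattern that 20% of all tested genes showed, and 1, MT-ND4L, lay lower in every one, as did 17.5% of all tested genes.

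MT-ND6 encodes a membrane subunit of complex I, NADH dehydrogenase. Its TMM-normalized CPM was 71.8, 68.2 and 85.3 in CTCF-WT and 338, 169 and 129 in CTCF-dRBR. No CTCF-dRBR value was as low as the highest CTCF-WT value, and library 1 was the highest. The log2 fold change was 1.37 with an SE of 0.35 (95% interval 0.52 to 2.21), equal to a ratio of 2.58, and the adjusted p by limma-voom was 0.134. It lay between 0.98 and 1.67 when each library was left out in turn. Without CTCF-dRBR library 1 it was 0.98 with an adjusted p of 0.0426 by limma-voom, and over all alternatives run the adjusted p ranged from 0.000147 to 0.482.

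The share of MT-ND6 within the mitochondrial mRNA counts was 1.74%, 2.06% and 2.33% in CTCF-WT and 7.53%, 4.32% and 3.29% in CTCF-dRBR. The means were 2.05% ± 0.293 (SD, n = 3) and 5.05% ± 2.21 (SD, n = 3). The groups did not overlap, and the two-sided exact permutation p was 0.1, which is the smallest that 3 libraries against 3 can give. The share of all light strand genes in the mitochondrial counts was 1.34%, 1.63% and 2.25% in CTCF-WT and 7.26%, 4.25% and 3.26% in CTCF-dRBR (exact permutation p = 0.1), and it was made up almost wholly of MT-ND6, since the tRNAs held few counts.

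Because library 1 of CTCF-dRBR differed from libraries 2 and 3 in most other mitochondrial mRNAs, MT-ND6 was also set against each heavy strand mRNA within the same library. This ratio needs no scaling between libraries. The ratio of the MT-ND6 count to that of its neighbor MT-ND5, which encodes a proton-pumping subunit of the same complex, was 0.508, 0.567 and 0.679 in CTCF-WT and 1.41, 1.92 and 1.48 in CTCF-dRBR. The means were 0.585 ± 0.0868 and 1.60 ± 0.277 (SD, n = 3 each), the groups did not overlap, and library 1 did not stand out (exact permutation p = 0.1, the smallest possible).

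The ratio of MT-ND6 to the other heavy strand mRNAs behaved likewise in direction. For 12 of the 12 the lowest CTCF-dRBR ratio exceeded the highest CTCF-WT ratio, and the mean ratio was between 2.45 (MT-CO1) and 4.23 (MT-ND4L) times that of CTCF-WT. The groups came close for MT-CO1, at 0.0536, 0.0637 and 0.0697 in CTCF-WT and 0.269, 0.107 and 0.0813 in CTCF-dRBR, and for MT-CO3, at 0.0576, 0.0748 and 0.0875 against 0.383, 0.140 and 0.101. These 12 ratios share the values of MT-ND6 and are not separate observations, and they were looked at after the values of MT-ND6 were known. By CPM MT-ND6 already lay above without overlap, as did 20% of all tested genes. How many other genes would show such ratios was not computed, so the 12 of 12 adds no support of its own.

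**Figure D2:**
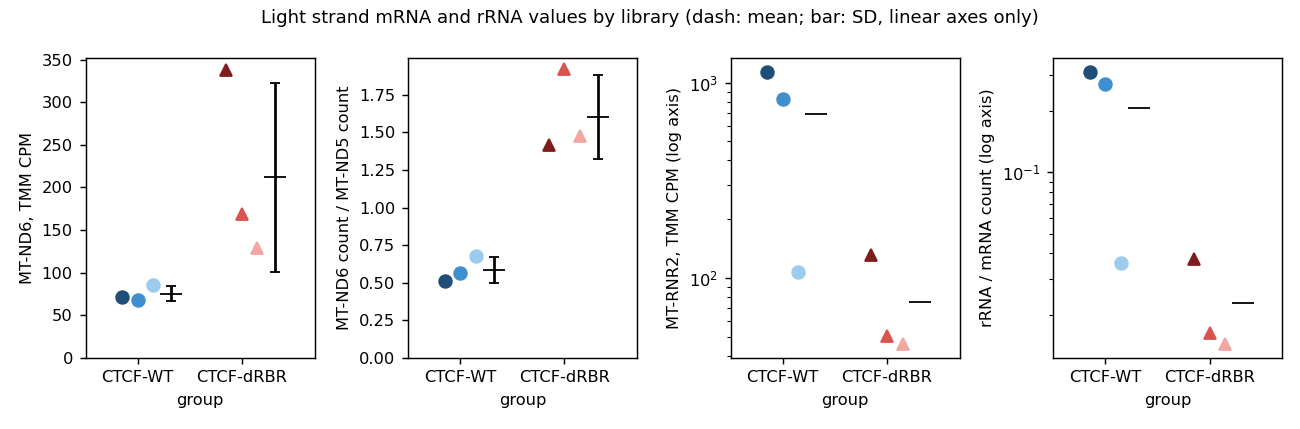
Values of MT-ND6 (TMM-normalized CPM), of the MT-ND6 to MT-ND5 count ratio, of MT-RNR2 (TMM-normalized CPM, log axis) and of the rRNA to mRNA count ratio (log axis) by library, with the group mean as a dash and, on the linear axes, the SD as a bar. In the first 2 panels the groups are apart, with MT-ND6 at 68.2 to 85.3 CPM in CTCF-WT and 129 to 338 in CTCF-dRBR, and in the last 2 CTCF-WT library 3 lies among or next to the CTCF-dRBR libraries.

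The 6 other mRNAs of complex I are all on the heavy strand unit. MT-ND4L, a small membrane subunit, had 39.9, 35.7 and 30.9 CPM in CTCF-WT and 30.2, 18.9 and 17.8 in CTCF-dRBR. The highest CTCF-dRBR value, again from library 1, was just under the lowest CTCF-WT value. The log2 fold change was -0.74 (SE 0.22) with an adjusted p of 0.147 by limma-voom, between -0.95 and -0.60 with each library left out. Without CTCF-dRBR library 1 it was -0.95 with an adjusted p of 0.0341 by limma-voom.

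MT-ND4, its partner on the same bicistronic RNA, had 186, 181 and 181 CPM in CTCF-WT and 343, 124 and 115 in CTCF-dRBR. The CTCF-WT libraries were nearly equal, while in CTCF-dRBR library 1 was the highest of the 6 and libraries 2 and 3 the lowest. The ratio of the MT-ND4L to the MT-ND4 count was 0.214, 0.197 and 0.171 in CTCF-WT and 0.0882, 0.153 and 0.154 in CTCF-dRBR, lower in each CTCF-dRBR library (exact permutation p = 0.1).

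MT-ND1, which forms part of the quinone site, had 112, 104 and 112 CPM in CTCF-WT and 150, 52.8 and 51.7 in CTCF-dRBR. MT-ND2 had 122, 112 and 114 against 197, 65.1 and 60.3, and MT-ND5 had 141, 120 and 126 against 239, 88.1 and 87.1; both encode pumping subunits. In all 3 genes library 1 of CTCF-dRBR was above every CTCF-WT library and libraries 2 and 3 were below every one. MT-ND3, another small membrane subunit, had 111, 74.3 and 76.0 CPM in CTCF-WT and 77.3, 54.3 and 54.8 in CTCF-dRBR, so that library 1 fell within the CTCF-WT range. With all 6 libraries the log2 fold changes were -0.60 for MT-ND1, -0.38 for MT-ND2, -0.50 for MT-ND3, -0.12 for MT-ND4 and -0.10 for MT-ND5, with adjusted p-values by limma-voom between 0.202 and 0.868.

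MT-CYB, the cytochrome b subunit and the only mitochondrially encoded part of complex III, had 118, 99.9 and 102 CPM in CTCF-WT and 199, 62.5 and 68.6 in CTCF-dRBR. The subunits of complex V, the ATP synthase, showed the same order. MT-ATP6, which lines the proton channel, had 124, 113 and 127 CPM against 241, 67.5 and 55.2, and MT-ATP8 had 21.9, 17.8 and 24.5 against 43.8, 13.8 and 11.4. For each, CTCF-dRBR library 1 was the highest of the 6 and libraries 2 and 3 were the lowest, and the log2 fold changes over all libraries were -0.20, -0.37 and -0.24 with adjusted p-values by limma-voom of 0.748, 0.616 and 0.725. The ratio of the MT-ATP8 to the MT-ATP6 count overlapped between the groups, from 0.157 to 0.193 in CTCF-WT and from 0.182 to 0.207 in CTCF-dRBR.

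The complex IV mRNAs did not follow this order. MT-CO1 had 1340, 1072 and 1224 CPM in CTCF-WT and 1255, 1589 and 1581 in CTCF-dRBR, so that libraries 2 and 3 of CTCF-dRBR were above all CTCF-WT libraries and library 1 lay among them. MT-CO3 had 1246, 912 and 975 against 882, 1212 and 1272, and here CTCF-dRBR library 1 was the lowest of the 6. MT-CO2 had 486, 395 and 485 against 493, 404 and 397, with the groups mixed. The log2 fold changes were 0.28 (SE 0.14) for MT-CO1, 0.10 for MT-CO3 and -0.08 for MT-CO2, with adjusted p-values by limma-voom of 0.229, 0.710 and 0.688.

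**Figure D3:**
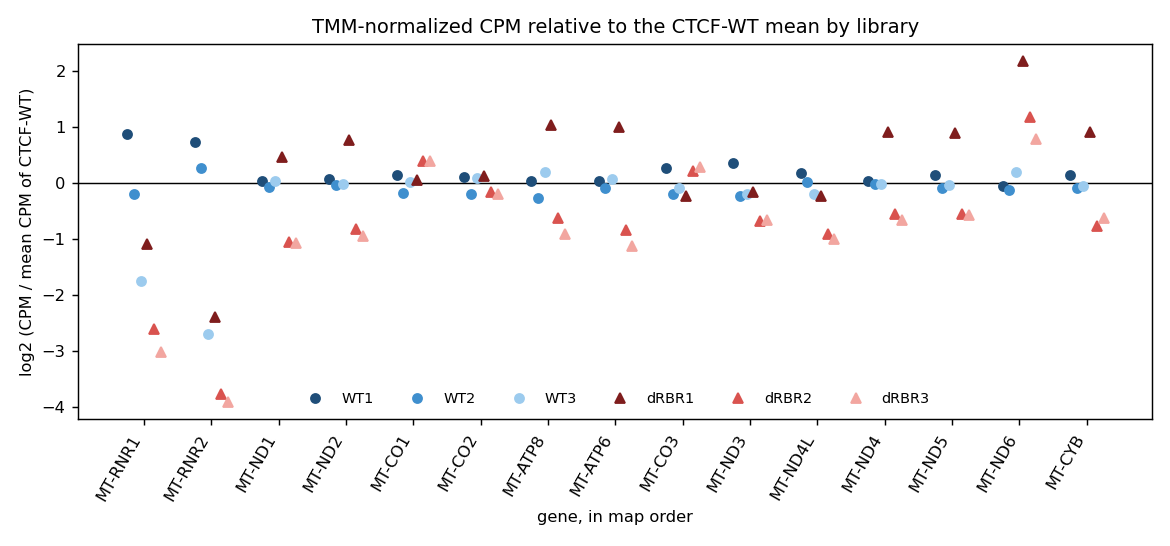
Log2 ratio of the TMM-normalized CPM in each library to the CTCF-WT mean for the 15 mRNAs and rRNAs in map order, with circles for CTCF-WT and triangles for CTCF-dRBR. For 7 of the 12 heavy strand mRNAs CTCF-dRBR library 1 is above and libraries 2 and 3 are below all CTCF-WT libraries, whereas for MT-ND6 all 3 are above.

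Thus 7 of the 12 heavy strand mRNAs (MT-ND1, MT-ND2, MT-ND4, MT-ND5, MT-CYB, MT-ATP6 and MT-ATP8) had CTCF-dRBR library 1 as the highest of the 6 and libraries 2 and 3 below every CTCF-WT library. Of all 14044 genes tested, 498 or 3.55% had this order. Libraries 2 and 3 alone were below every CTCF-WT library in 9 of the 12, against 22.9% of all genes tested. Both orders were chosen after the values of these genes were seen. The 12 mRNAs belong to the same transcription unit and are not separate observations. The median log2 fold change of the 12 was -0.22 with all libraries, beside -0.01 over all genes, with 10 below 0 and 2 above. The split was 6 against 6 with edgeR and 5 against 7 with DESeq2, and on the deposited TPM 3 were below 0 and 9 above, with the median of all genes there at 0.40. With TPM rescaled over protein-coding genes, an alternative chosen after seeing the data, 10 were again below 0 and 2 above.

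Without CTCF-dRBR library 1, 8 of the 15 passed the adjusted threshold by limma-voom. MT-ND6 was higher, in a fit where 1.52% of all genes were called higher, and 7 were lower, where 2.37% of all genes were called lower. The log2 fold changes of those 7 were -1.07 for MT-ND1, -0.99 for MT-ATP6, -0.95 for MT-ND4L, -0.89 for MT-ND2, -0.70 for MT-CYB, -0.61 for MT-ND4 and -0.56 for MT-ND5, with adjusted p-values between 0.0209 and 0.0426. MT-ATP8 (-0.76, adjusted p = 0.0643) and MT-ND3 (-0.65, adjusted p = 0.0852) did not pass, nor did MT-CO1 (0.39, adjusted p = 0.0833) or the rRNAs. These calls rest on 2 CTCF-dRBR libraries, and the library left out had values in the other direction for most of the 7. What set library 1 apart in these genes was not tested. Its depth, 30034505 counts, and its correlation with GC content were the lowest of the 6. The GC contents of the 7 genes lay between 43.0% and 47.7%, and that of MT-CO1 was 46.2%. The part of depth or GC content in these values was not tested.

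**Figure D4:**
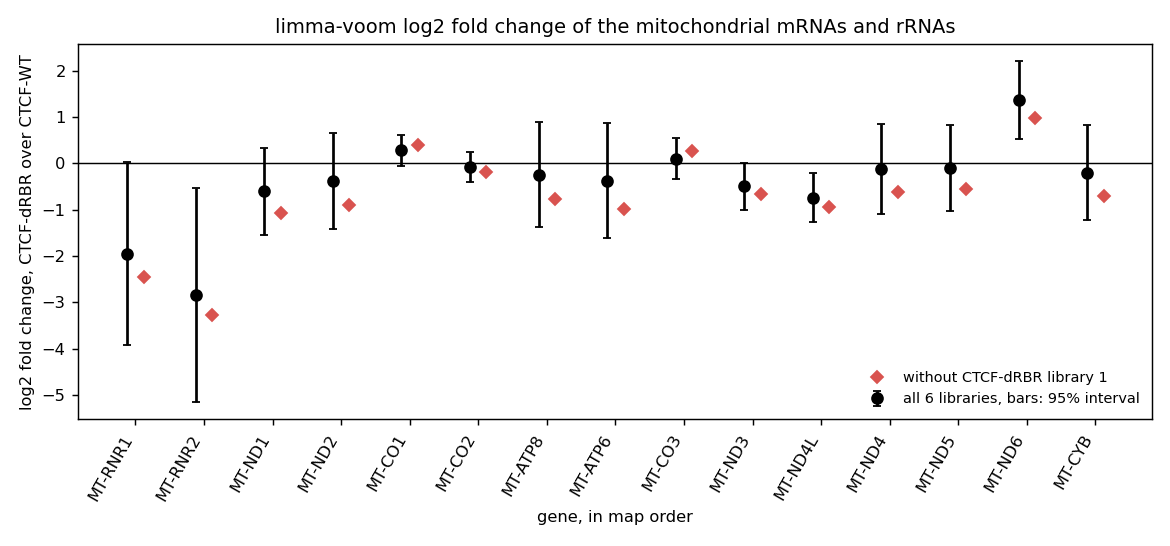
Log2 fold change of CTCF-dRBR over CTCF-WT by limma-voom for the 15 genes in map order, from all 6 libraries with the 95% interval (black circles) and without CTCF-dRBR library 1 (red diamonds). The interval of MT-ND6 runs from 0.52 to 2.21, and that of most heavy strand mRNAs spans 0, while leaving out library 1 moves 10 of the 12 further below it.

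The makeup of the mitochondrial mRNA counts was compared by respiratory complex. Complex IV held 74.6%, 71.96% and 73.3% of them in CTCF-WT and 58.6%, 81.7% and 83.3% in CTCF-dRBR. Complex I mRNAs, MT-ND6 included, held 19.02%, 21.1% and 19.8% in CTCF-WT and 30.6%, 14.6% and 13.2% in CTCF-dRBR. The CTCF-WT libraries were within a few percent of each other, and the CTCF-dRBR libraries lay on both sides of them (exact permutation p = 1.0 for both). MT-CO2 (10.2% to 11.0% in CTCF-dRBR, 11.8% to 13.2% in CTCF-WT) and MT-ND3 (1.39% to 1.72% and 2.08% to 2.69%) had a lower share in every CTCF-dRBR library (exact permutation p = 0.1 for each), as had MT-ND4L (0.457% to 0.674% and 0.845% to 1.08%, exact permutation p = 0.1). With MT-ND6, higher in each, 4 of the 13 shares did not overlap. Shares of a common sum are not independent of each other, and 17.5% of all tested genes lay below and 20% above without overlap by CPM.

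**Figure D5:**
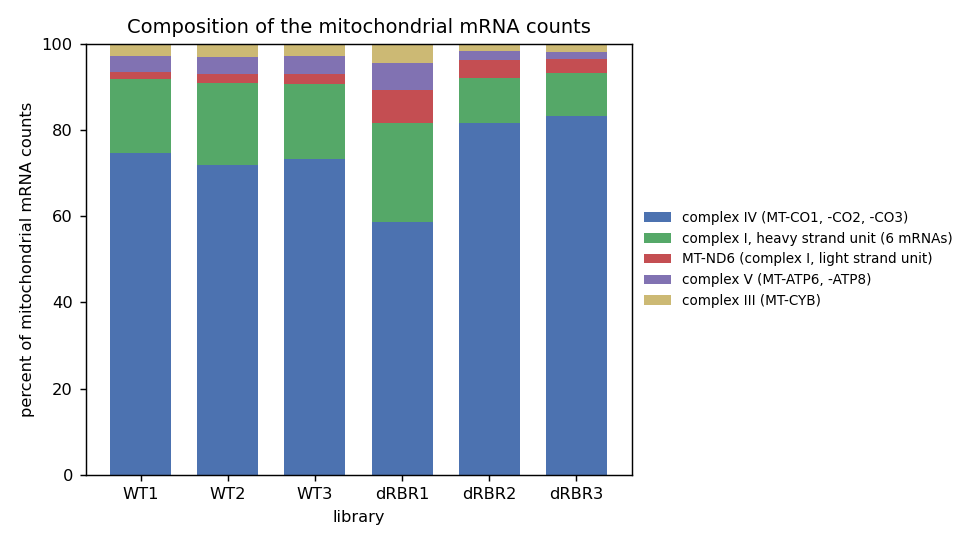
Stacked percent of the mitochondrial mRNA counts by respiratory complex in each library, with MT-ND6 drawn apart from the other complex I mRNAs. Complex IV takes 71.96% to 74.6% in the CTCF-WT libraries, 58.6% in CTCF-dRBR library 1 and 81.7% and 83.3% in libraries 2 and 3, and the share of MT-ND6 is larger in all 3 CTCF-dRBR libraries.

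The rRNAs were measured in libraries from which rRNA had been removed by probes (RiboErase), so their counts are of what was left after this step. MT-RNR2, the large-subunit rRNA (chrM:1671-3229), had 1134, 828 and 107 CPM in CTCF-WT and 130, 50.4 and 45.7 in CTCF-dRBR. MT-RNR1, the small-subunit rRNA (chrM:648-1601), had 148, 70.6 and 24.02 CPM against 37.9, 13.2 and 10.1. CTCF-WT libraries 1 and 2 were high in both, and CTCF-WT library 3 lay below CTCF-dRBR library 1. The log2 fold changes were -2.84 (SE 0.96, adjusted p = 0.163) and -1.95 (SE 0.82, adjusted p = 0.199) by limma-voom.

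The ratio of rRNA to mRNA counts was 0.311, 0.272 and 0.0357 in CTCF-WT and 0.0375, 0.0162 and 0.0143 in CTCF-dRBR, which overlapped (exact permutation p = 0.2). The ratio of the MT-RNR2 to the MT-RNR1 count was 7.65, 11.7 and 4.45 in CTCF-WT and 3.44, 3.81 and 4.55 in CTCF-dRBR, and was thus largest in the libraries with the most rRNA. Abundant noncoding RNAs of the nucleus and cytosol were also uneven between libraries. RN7SL2, an RNA of the signal recognition particle, had 25077, 19646 and 4495 CPM without TMM in CTCF-WT and 3849, 7617 and 12172 in CTCF-dRBR. SNORD3A, the U3 small nucleolar RNA, had 6297, 6574 and 1473 against 2263, 1085 and 1677. Like the rRNAs, both were highest in CTCF-WT libraries 1 and 2. Within CTCF-dRBR, SNORD3A and the rRNAs were highest in library 1, where RN7SL2 was lowest. RN7SL1, RN7SK and RPPH1, other abundant noncoding RNAs, were also lowest there. The part of these noncoding RNAs in the rRNA values was not tested.

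The 22 tRNAs are between 59 and 75 bases long and had few counts. Whether these libraries capture RNAs of this length was not tested, so the counts do not give the tRNA levels in the cells. In all 6 libraries together they had 147 counts, from 10 to 47 in a library, all were listed at a TPM of 0, and 8 had no count in any library. All of these 8 (MT-TI, MT-TW, MT-TG, MT-TR, MT-TD, MT-TK, MT-TT and MT-TL2) are on the heavy strand unit, where 14 of the tRNAs lie, while each of the 8 light strand tRNAs had at least 1 count. The highest was MT-TV (chrM:1602-1670, plus strand), the valine tRNA between the rRNAs, with 19, 5 and 7 counts in CTCF-WT and 1, 4 and 5 in CTCF-dRBR. Its sequence from GRCh37 is shown with the anticodon in capitals, as the tRNA with the most counts.
MT-TV: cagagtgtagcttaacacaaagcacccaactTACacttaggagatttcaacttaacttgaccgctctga
MT-TQ, the glutamine tRNA of the light strand unit, came next with 1, 5 and 2 counts against 3, 4 and 6. Counts of this size allow no comparison of the groups, and a count of 0 allows up to 3 counts, which is 0.0564 to 0.0999 CPM in these libraries. Counting error alone is covered by that limit.

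Mitochondrial genes together held 0.504%, 0.406% and 0.389% of all expected counts in CTCF-WT and 0.464%, 0.420% and 0.404% in CTCF-dRBR. The 95% Wilson intervals of these shares were at most 0.00243 percentage points to either side, far narrower than the differences between libraries. The means were 0.433% ± 0.0619 and 0.429% ± 0.0307 (SD, n = 3 each), the groups overlapped, and the exact permutation p was 0.9. Within this sum the mRNAs held 0.384%, 0.319% and 0.375% in CTCF-WT and 0.447%, 0.414% and 0.398% in CTCF-dRBR, higher in each CTCF-dRBR library (exact permutation p = 0.1). The rRNAs held 0.120%, 0.0868% and 0.0134% against 0.0168%, 0.00671% and 0.00570%. The total of all counts includes noncoding RNAs that were uneven between libraries. RN7SK, for example, had 57734, 44464 and 36673 CPM without TMM in CTCF-WT and 31952, 32535 and 40126 in CTCF-dRBR. The mRNAs as a share of protein-coding counts were not compared. By CPM, 20% of all tested genes lay above without overlap in CTCF-dRBR. In bulk RNA, fewer mitochondria or cells and less RNA in each cannot be told apart. Doxycycline, which as background is known to inhibit the mitochondrial ribosome, was present in both groups, so its part in these levels cannot be told apart from the rest of the treatment.

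Nuclear copies of mitochondrial genes can take reads from the genes they resemble. They were found by their gene symbols, so copies listed under other names were not counted. Of 188 such genes, 146 had counts, and together they held between 0.400% and 1.31% of the mitochondrial counts in a library. Among the copies of mRNAs and rRNAs found in this way, 2 exceeded 1% of the counts of their counterpart. MTATP6P1 had 668, 706 and 1333 counts in CTCF-WT and 1138, 658 and 612 in CTCF-dRBR, which was 11.0% to 21.5% of the MT-ATP6 count of the same library. MTND2P28 had 213 to 378 counts, 5.07% to 8.09% of MT-ND2. The values of MT-ATP6 and MT-ND2 are uncertain by about these shares, and MT-ND6 had no copy of this size among those found. The copies found for MT-CO1, MT-CO2 and MT-CO3 had no counts. The expected counts of MT-CO1 were not whole numbers, such as 65743.51 in CTCF-WT library 1. Whether the complex IV mRNAs shared reads with copies under other names was not tested.

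Of the 9 nuclear genes for transcription of the mitochondrial genome, all were tested and 0 passed the adjusted threshold by limma-voom. POLRMT, the polymerase, had 48.5, 50.3 and 36.6 CPM in CTCF-WT and 9.83, 25.3 and 38.3 in CTCF-dRBR, with a log2 fold change of -0.99 (SE 0.43, adjusted p = 0.207) and its lowest value in CTCF-dRBR library 1. The promoter-binding factors TFAM (0.11) and TFB2M (-0.25), the elongation factor TEFM (0.14) and MTERFD3 (0.42), of the family of termination factors, had adjusted p-values between 0.181 and 0.575. LRPPRC and SLIRP, which together stabilize the mRNAs of the organelle, had log2 fold changes of 0.05 and -0.11 with adjusted p-values of 0.809 and 0.691.

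Over the other 10 lists 0 of 147 tested genes passed by limma-voom and 0 by edgeR. DESeq2 called 29 of them lower and 0 higher, against 6.15% of all genes called lower and 5.39% called higher. These 29 were 11 of complex I, 6 of RNA processing, 4 of complex IV, 3 of complex V, 2 tRNA synthetases, and 1 each of replication, translation factors and complex II. The counts that follow are at an unadjusted p under 0.05 by limma-voom, where 12.6% of all genes were higher and 12.8% lower, and the genes named are those with the smallest p. In RNA processing and tRNA maturation 8 of 18 were lower and 0 higher, among them HSD17B10 (-0.71), a subunit of the mitochondrial RNase P, and MRM1 (-1.30), an rRNA methyltransferase. In RNA stability and decay 1 of 14 was lower, FASTK (-1.09), and PTCD1 (-0.52) had the next smallest p. In replication and nucleotide supply 2 of 10 were higher and 3 lower, with the helicase gene C10orf2 at -1.05 and RRM2B, of ribonucleotide reductase, at 0.39. Of the tRNA synthetases 4 of 17 were lower, with the smallest p for EARS2 (-0.74) and MARS2 (-0.56), and of the translation factors 1 of 10 was lower, TSFM (-0.53), and 1 higher, MTRF1 (0.52).

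The nuclear partners of the mitochondrial mRNAs in the respiratory chain were mostly lower. In complex I, 32 of 37 had a log2 fold change below 0, with a median of -0.52, and 18 were lower at an unadjusted p under 0.05, beside the 12.8% of all genes, such as NDUFAB1 (-0.52) and NDUFB9 (-0.54). The medians were -0.58 for complex III (9 genes, UQCRQ at -0.64 and UQCRH at -0.28), -0.38 for complex IV (11 genes, COX5A at -0.35 and COX6A1 at -0.38) and -0.40 for complex V (17 genes, ATP5G1 at -1.16 and ATP5J at -0.57). Complex II, which has no mitochondrially encoded subunit, had a median of -0.19 over 4 genes, with SDHC at -1.32 and SDHD at -0.21. The median over all genes tested was -0.01. Without CTCF-dRBR library 1 the medians were -0.37 for complex I, -0.31 for complex III, -0.36 for complex IV, -0.31 for complex V and -0.19 for complex II. The nuclear subunits of complex IV were below 0 in 10 of 11 by limma-voom. Of the mitochondrially encoded subunits, MT-CO1 (0.28) and MT-CO3 (0.10) were above 0 and MT-CO2 (-0.08) was below. MT-CO3 ranged from -0.0016 to 0.26 with each library left out. Of all these genes 0 passed the adjusted threshold by limma-voom or edgeR. In complex IV DESeq2 called 4 of the 11 lower, and limma-voom with the GC trend removed called 3, against 5.45% of all genes there. That fit called 5 of 37 lower in complex I, 0 of 9 in complex III, 1 of 17 in complex V and 1 of 4 in complex II. Without CTCF-dRBR library 1 limma-voom called 1 of 37 lower in complex I and 0 of 9 in complex III. It called 0 of 11 in complex IV, 2 of 17 in complex V and 1 of 4 in complex II, against 2.37% of all genes.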

How the data were processed

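Total RNA of 6 libraries (3 CTCF-WT, 3 CTCF-dRBR, grouped by their titles) had been prepared with a kit that removes rRNA (Kapa RNA HyperPrep with RiboErase). The authors trimmed reads with Trim Galore 0.6.3, aligned them to GRCh37 with STAR 2.7.9a and quantified Gencode v19 genes with RSEM 1.3.1, per the submitters' processing notes and the methods; the labels call the reads single-end and the methods paired-end. The authors deposited RSEM expected counts, which are not normalized, and TPM, which are divided by effective gene length and scaled to a common total in each library. The table's name says that counting used strand.

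The expected counts were used as deposited in limma-voom (limma 3.58.1, edgeR 4.0.16 for TMM, R 4.3.3), as in the methods of the study, without covariates and with all 6 libraries. Genes that reached 1 CPM in no library were left out, tests were two-sided, and p-values were adjusted by Benjamini-Hochberg over 14044 genes, with a threshold of 0.05. Counts were rounded for edgeR's quasi-likelihood test and DESeq2 1.42.0. CPM of single genes are TMM-normalized. The fits were tested on simulated counts with 200 changed genes. Single values were compared by an exact permutation test, whose smallest p is 0.1. Positions and sequences come from chrM of GRCh37. Named were all mRNAs and rRNAs, the tRNAs that passed the filter (0 did, and those named were chosen after their counts were seen), CTCF, 6 nuclear regulators and, of each nuclear list, the called genes or the 2 with the smallest p. The members and lists were chosen with earlier results of these data known. Alternatives were other tools, scalings, filters, TPM with a pseudocount of 1 or 0.1, removal of a GC trend, a replicate block and leaving out each library. Chromatin and other assays were not analysed here.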

Additional observations from a re-analysis of the deposited data

How the results depend on the processing

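The count of mitochondrial genes past an adjusted p of 0.05, 0 with limma-voom, became 3 with DESeq2 and with limma-trend on log2(TPM + 1) or log2(TPM + 0.1), 14 with voomWithQualityWeights, 2 with the GC trend removed, and, chosen after seeing the data, 11 with the GC trend removed and CTCF-dRBR replicate 1 left out. With one library left out it ranged from 0 to 8, the 8 without CTCF-dRBR replicate 1. Over all genes the same settings gave 1619, 833, 760, 9583, 1326 and 3277 in place of 0 (DESeq2, log2(TPM + 1), log2(TPM + 0.1), quality weights, GC trend, GC trend without the replicate), and 0 to 535 with one library left out. With TPM rescaled over protein-coding genes, also chosen after seeing the data, 0 mitochondrial genes and 0 of all genes passed, and MT-ND6 was at 1.36 with an adjusted p of 0.166 by limma-trend. The quality weights ranged from 0.0969 (CTCF-dRBR replicate 1) to 6.19, and the cause of the larger counts was not tested.

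MT-ND6 passed in those same settings, with a log2 fold change of 1.51 with DESeq2, 1.26 with quality weights, 1.82 and 1.83 on TPM, 1.17 with the GC trend removed and 0.88 with the GC trend removed and CTCF-dRBR replicate 1 left out. It ranged from 0.98 to 1.67 with one library left out. Directions turned, with no adjusted p under 0.05, as follows. With edgeR, MT-CYB was at 0.047, MT-ND5 at 0.096, MT-ND4 at 0.088 and MT-ATP8 at 0.099. With DESeq2, they were at 0.059, 0.11, 0.10 and 0.11, and MT-ATP6 at 0.011. On log2(TPM + 1), with the all-gene median shifted to 0.40, MT-CO2 was at 0.41, MT-CYB at 0.36, MT-ND2 at 0.18, MT-ND5 at 0.46, MT-ND4 at 0.42, MT-ATP6 at 0.16 and MT-ATP8 at 0.013, and on log2(TPM + 0.1) at 0.41, 0.36, 0.18, 0.46, 0.42, 0.15 and 0.012. With one library left out, MT-CYB ranged from -0.70 to 0.11, MT-ND5 from -0.56 to 0.15, MT-ND4 from -0.61 to 0.16, MT-ATP6 from -0.99 to 0.042, MT-ATP8 from -0.76 to 0.10 and MT-CO3 from -0.0016 to 0.26, with the turns without CTCF-dRBR replicate 2 (MT-CYB, MT-ND5, MT-ND4) or 3 (these and the rest). The rRNAs, MT-ND1, MT-ND3, MT-ND4L, MT-ND6 and MT-CO1 kept their direction in every setting run.

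The difference in the mitochondrial share, -0.00337 percentage points, was 0.132 on TPM and ranged from -0.0254 to 0.0320 with one library left out. The difference in the share of MT-ND6 was 5.55 percentage points on TPM in place of 3.00, and that of the light strand 5.74 in place of 3.18. With one library left out these ranged from 1.76 to 3.88 and from 2.01 to 4.02, and the rRNA to mRNA ratio from -0.269 to -0.131. Adding the nuclear copies found by symbol moved none of these 4 by more than the SD between libraries. Nor did leaving the rRNAs out of the light strand share or counting only protein-coding genes in the total of the mitochondrial share. The mRNAs alone, as a share of all counts, differed by 0.0602 percentage points, in the other direction from the whole mitochondrial share. Deviations from the group mean correlated at -0.51, 0.16 and -0.63 across genes between same-numbered libraries. The GC trend of each library enters these values, so they cannot decide whether the numbers pair the samples. With the replicate block 0 mitochondrial genes passed and MT-ND6 was at 1.38, and with the block and the GC trend removed at 1.18 with 0 past the threshold. The tRNAs had at most 19 counts in a library, too few to compare the groups at this depth.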
